A study of Mus musculus with 6 samples.

Results

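Genes of the motile axoneme, the microtubule core of the sperm tail and of beating cilia, were followed in whole mouse testes of 2 groups. The members were all genes whose current symbol starts with Dnah, Dnai, Dnal, Dnaaf, Drc, Rsph, Tekt or Cfap and that had at least 3 probe sets carrying that symbol alone, which gave 39 of the 15207 genes with a gene level. Of 76 protein-coding mouse symbols with these prefixes, the other 37 had no probe set of their own and are not analysed here. The members comprised 6 dynein heavy chains, 1 dynein intermediate chain, 3 light or light intermediate chains, 4 dynein assembly factors, 2 components of the nexin-dynein regulatory complex, 3 radial spoke proteins, 3 tektins and 17 cilia and flagella associated proteins. Between 3 and 104 probe sets measured each of them, with a median of 12.

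An axoneme is built of doublet microtubules around a central pair, and it bends because dynein motors on each doublet walk along the next. Heavy chains are the motors, intermediate and light chains hold them to the doublet, and assembly factors fold the motors in the cytoplasm before they travel into the tail. Nexin links and radial spokes coordinate the motors, while tektins and other proteins inside the doublet wall stiffen it. In the testis many of these genes are already transcribed in pachytene spermatocytes, well before a tail grows on the spermatid.

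The wild-type group (Wt P21) held 3 arrays of testes from mice at 21 days of age, and the mutant group (Fn adult) held 3 arrays of testes from adult mice. Each mutant carried 2 copies of the Fn allele of Dazap1, a floxed allele that still carries its neo cassette and that, by the study, makes an aberrant form of the RNA-binding protein DAZAP1. The strain background was mixed C57BL/6 and 129 in both groups. According to the study, adult mutant testes have spermatocytes but no post-meiotic germ cells. It describes wild-type testes at 21 days as the most similar to them in germ cells. Many germ cells there have reached pachytene, and only a small fraction has passed meiosis. Genotype and age change together in this design and cannot be told apart, and in whole testes fewer cells of a type and less RNA per cell cannot be told apart either. Dazap1 itself had no probe set under its own symbol alone, so the labels were not checked against it.

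Values are log2 gene levels, the median over the probe sets of a gene, and differences are Fn adult minus Wt P21. A gene was said to fall or rise where the moderated test of limma, adjusted over all genes by the Benjamini-Hochberg method, gave a p under 0.05. The median probe set level of an array ranged from 8.76 to 9.05 in Wt P21 and from 9.05 to 9.10 in Fn adult. A gene is called low on an array here where its level was below that array's lower quartile, which was 7.36 to 7.56, because no background level is known for these values.

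Wt P21 replicate 3 stood apart from its group. The median SD of a gene was 0.21 within Wt P21 and 0.11 within Fn adult on the log2 scale. Wt P21 replicate 3 was the highest of all 6 arrays for 36 of the 39 members (92.3%), against 31.9% of all genes. The main counts and most differences are therefore given with and without this array. The other 2 Wt P21 arrays differed from the rest in another way. Crisp1, which encodes a secreted protein of the epididymis, had log2 levels of 10.26 and 8.74 in Wt P21 replicates 1 and 2, but 4.30 in replicate 3 and 4.03 to 4.70 in Fn adult. The part of either difference between arrays in the results below was not tested.

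The axonemal genes lay lower in Fn adult as a group. The level was below Wt P21 for 38 of 39 members, where 41.3% of all genes were lower. The median difference was -0.55 over the members and 0.07 over all genes on the log2 scale. Few members passed the test singly: 2 fell (5.13%), Cfap61 and Dnali1, against 0.914% of all genes, and none rose, against 8.07% of all genes. At an unadjusted p under 0.05, 22 members were lower (56.4%, against 6.02% of all genes) and none was higher. A level more than 1.5-fold lower was found for 16 members (41.0%, against 2.72% of all genes), and for 20 members (51.3%) every Fn adult array lay below every Wt P21 array, against 8.96% of all genes.

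Without Wt P21 replicate 3 most differences were nearer to 0, but more members passed the test. The members' median was then -0.35, against 0.14 over all genes, and 35 of 39 were lower, against 35.1% of all genes. The number more than 1.5-fold lower dropped to 4 (10.3%, against 1.67%). The number that fell rose to 5 (12.8%, against 2.41% of all genes), namely Cfap61, Dnali1, Cfap299, Rsph9 and Drc7, and no member rose, where 16.1% of all genes did. In 21 members (53.8%) the 2 groups did not overlap, against 13.6% of all genes. Quantile normalization, which gives all arrays the same distribution, moved the median difference of all genes by -0.12 and that of the members to -0.66, with 10 members past the threshold, against 2.97% of all genes. With array medians centred, 17 members fell, against 4.14% of all genes. After quantile normalization without Wt P21 replicate 3, 11 fell, against 6.58%.

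**Figure D1:**
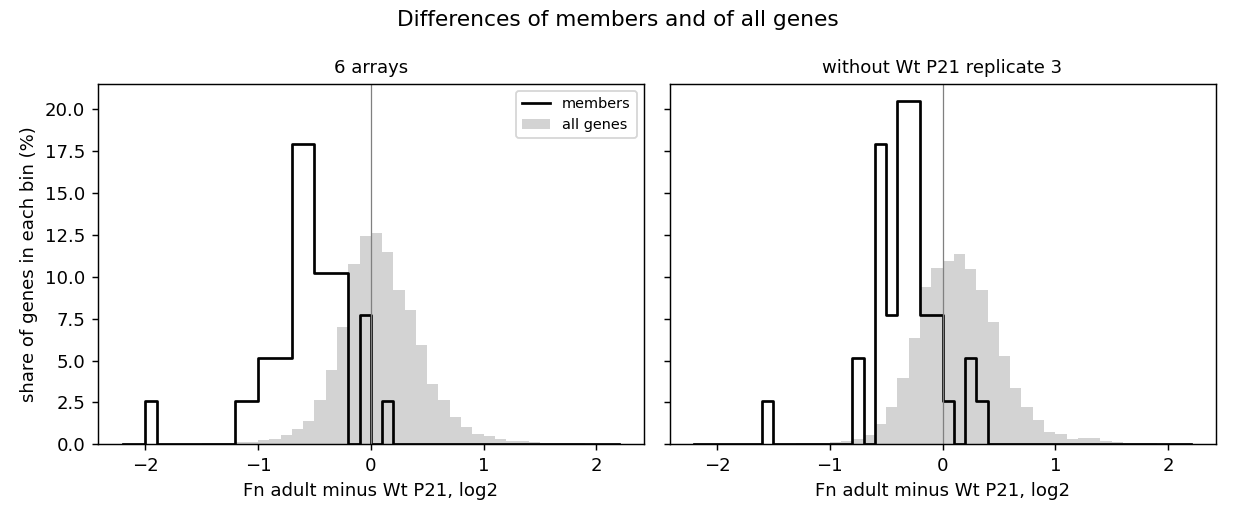
The share of genes (vertical axis, percent) in bins of the log2 difference Fn adult minus Wt P21 (horizontal axis), for all genes (grey bars) and the 39 members (black line), from 6 arrays on the left and without Wt P21 replicate 3 on the right. Of the members 38 lie left of 0 in the left panel (median -0.55) and 35 in the right (median -0.35), and genes beyond the axis are not drawn.

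All 6 dynein heavy chains were lower in Fn adult and none passed the test, with differences from -0.70 to -0.24 and a median of -0.38 (-0.31 without Wt P21 replicate 3). Dnah1, a motor of the inner arm, had the lowest difference, at -0.70 ± 0.19 (SE, adjusted p = 0.0604). Its level was 10.67, 10.78 and 11.25 in Wt P21 replicates 1 to 3 and 9.95, 10.48 and 10.18 in Fn adult, so the groups did not overlap. All 37 of its probe sets were lower. Dnah8, a motor of the outer arm in sperm, was measured by 104 probe sets, the most of any member, and all of them were lower, with a gene level difference of -0.63 ± 0.19 (adjusted p = 0.0718). Without Wt P21 replicate 3 the differences were -0.52 for Dnah1 and -0.50 for Dnah8.

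The remaining heavy chains had smaller differences. Dnah2, another inner arm motor, differed by -0.32 with all arrays and by -0.02 without Wt P21 replicate 3, and Dnah14 by -0.41 and -0.03. All 35 probe sets of Dnah2 were lower with all arrays, and the mean of its probe sets then differed by -0.53 (adjusted p = 0.204). Dnah5 and Dnah11, outer arm motors known from airway and embryonic cilia, were low on all 6 arrays. Dnah5 differed by -0.35 (adjusted p = 0.205), or -0.20 without Wt P21 replicate 3. Dnah11 read 6.92, 6.62 and 6.23 in Wt P21 replicates 1 to 3 and 6.32, 6.45 and 6.27 in Fn adult. It was 1 of only 2 members, with Cfap100, that read less on Wt P21 replicate 3 than on replicates 1 and 2 averaged. The 2 highest arrays of Dnah11 were those with high Crisp1, whereas Dnah5 was highest on Wt P21 replicate 3 (7.03). A link to Crisp1 was not tested.

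The intermediate and light chains of the dynein arm were all lower as well, and 1 of the 4 fell, against 0.914% of all genes. Dnali1, the light intermediate chain of the inner arm, read 11.51, 11.68 and 12.22 in Wt P21 and 10.51, 11.11 and 10.99 in Fn adult. The groups were apart, and Dnali1 fell 1.91-fold (log2 difference -0.93 ± 0.22 SE, 95% interval -1.44 to -0.43, adjusted p = 0.0377). Without Wt P21 replicate 3 the fall was -0.72 (adjusted p = 0.0296), and all 9 probe sets were lower. The call did not outlast the removal of Wt P21 replicate 2 or of any Fn adult array, with adjusted p between 0.0750 and 0.162, while the difference stayed between -1.05 and -0.75. The intermediate chain Dnaic1, part of the outer arm, differed by -0.60 ± 0.23 (adjusted p = 0.132), or -0.36 without Wt P21 replicate 3. Of its 22 probe sets 3 fell on their own, against 0.411% of all probe sets. Dnal1, an outer arm light chain, differed by -0.58 (-0.56 without Wt P21 replicate 3), and its highest array was Wt P21 replicate 2 rather than replicate 3. The Dnal1 difference was smaller without Wt P21 replicate 2 (-0.38), with the mean of probe sets (-0.37) and with brighter probe sets only (-0.32). Dnal4, another light chain, differed by -0.43 (adjusted p = 0.237), or -0.20 without Wt P21 replicate 3.

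None of the 4 dynein assembly factors passed the test. Dnaaf1 had the lowest difference of them (-0.58, adjusted p = 0.115), Dnaaf4 differed by -0.55 (adjusted p = 0.0893) and Dnaaf5 by -0.20 (adjusted p = 0.509). Dnaaf5 read 11.35, 11.69 and 11.74 in Wt P21 and 11.23, 11.71 and 11.22 in Fn adult, so that Fn adult replicate 2 lay among the Wt P21 arrays. Dnaaf6b, an X-linked copy of Dnaaf6, differed by -0.55. The differences of the 4 factors without Wt P21 replicate 3 were -0.39 for Dnaaf1, -0.36 for Dnaaf4, -0.13 for Dnaaf5 and -0.43 for Dnaaf6b, and none passed. How the Dnaaf6b signal divides between the copies is uncertain, and it was low on 2 arrays, both Fn adult.

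The regulatory complex and the radial spokes held some of the largest differences. Drc7 of the nexin link read 9.52, 9.76 and 10.81 in Wt P21 and 8.73, 9.27 and 9.12 in Fn adult. The groups did not overlap, but the spread of Wt P21 was wide and the difference of -0.99 ± 0.31 missed the threshold (adjusted p = 0.0854). Without Wt P21 replicate 3 Drc7 fell by 0.60 (adjusted p = 0.0459). Drc3, another protein of this link, differed by -0.54 (adjusted p = 0.181), or -0.26 without that array. Rsph9, a protein of the spoke head, read 9.33, 9.53 and 10.90 in Wt P21 and 8.63, 8.98 and 8.97 in Fn adult. Its difference was -1.06 ± 0.37 (adjusted p = 0.106) with all arrays and -0.57 ± 0.15 (adjusted p = 0.0330) without Wt P21 replicate 3, since that array lay 1.47 above the mean of the other 2. The spoke head proteins Rsph6a and Rsph1 differed by -0.61 (adjusted p = 0.157) and -0.53 (adjusted p = 0.135), or by -0.35 and -0.37 without Wt P21 replicate 3.

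The 3 tektins, filament proteins of the doublet wall, lay far higher on Wt P21 replicate 3 than on replicates 1 and 2, whose mean it exceeded by 1.11 to 1.55. Tekt3 read 8.53, 8.39 and 9.73 in Wt P21 and 7.94, 8.28 and 8.08 in Fn adult. These groups did not overlap, and the difference was -0.78 (adjusted p = 0.163), or -0.36 (adjusted p = 0.107) without Wt P21 replicate 3. Tekt1 read 9.42, 9.31 and 10.47 in Wt P21 and 8.86, 9.42 and 9.08 in Fn adult. Fn adult replicate 2 here reached the lower Wt P21 arrays, and the difference was -0.61 (adjusted p = 0.231), or -0.24 without Wt P21 replicate 3. Tekt2 read 9.59, 9.37 and 11.03 in Wt P21 and 9.69, 9.70 and 9.81 in Fn adult. Its difference of -0.26 (adjusted p = 0.697) turned to 0.25 (adjusted p = 0.184) without Wt P21 replicate 3, the only Wt P21 array above Fn adult.

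Among the 17 cilia and flagella associated proteins the differences spread widest, from -1.93 to 0.20 around a median of -0.45, with 16 of them lower. Cfap61, a protein at the base of the radial spokes, had the lowest difference of all members. It read 9.13, 9.07 and 10.34 in Wt P21 and 7.39, 7.88 and 7.50 in Fn adult, with a gap of more than 1 log2 unit between the groups. Cfap61 fell 3.80-fold (log2 difference -1.93 ± 0.32 SE, 95% interval -2.66 to -1.19, adjusted p = 0.0106), and by 1.51 without Wt P21 replicate 3 (adjusted p = 0.000943). Its size is uncertain for measured reasons: the gene had only 3 probe sets and was low on Fn adult replicates 1 and 3. All 3 probe sets were lower but not alike. The probe sets that fell on their own differed by -1.99 and -1.74, whereas the mean of the 3 gave a difference of -1.38 (adjusted p = 0.00802). The gene level of Cfap61 passed the test with that mean too. It missed the threshold without either of those arrays (adjusted p = 0.0615 and 0.0511).

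Cfap299 read 9.69, 9.83 and 10.95 in Wt P21 and 8.66, 9.36 and 8.93 in Fn adult. The groups did not overlap, and the difference was -1.17 ± 0.33 (adjusted p = 0.0603), or -0.77 ± 0.19 (adjusted p = 0.0288) without Wt P21 replicate 3. Cfap57, a protein of the inner arm, read 9.81, 9.58 and 10.77 in Wt P21 and 8.56, 9.33 and 9.59 in Fn adult. Here Fn adult replicate 3 reached the lowest Wt P21 array, and the difference of -0.89 ± 0.35 did not pass (adjusted p = 0.145), nor did that of -0.53 without Wt P21 replicate 3 (adjusted p = 0.183). Of the rest, Cfap206, also a radial spoke protein, came nearest to the threshold (difference -0.71, adjusted p = 0.0585). Cfap161 and Cfap52, which lie inside the doublet, differed by -0.83 and -0.64, and Cfap69 and Cfap65, both needed for the sperm tail, by -0.65 and -0.41. The differences without Wt P21 replicate 3 were -0.58 for Cfap206, -0.46 for Cfap161, -0.35 for Cfap52, -0.39 for Cfap69 and -0.20 for Cfap65. None of these passed either way.

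At the other end 4 of the family stood near 0. Cfap20, an inner doublet protein, read 11.40, 11.54 and 11.84 in Wt P21 and 11.53, 11.55 and 11.58 in Fn adult, and the 95% interval of its difference ran from -0.36 to 0.29. Cfap298, an assembly factor of dynein arms, read 11.08, 10.89 and 11.93 against 11.06, 11.36 and 11.42, with a difference of -0.016 that became 0.30 (adjusted p = 0.181) without Wt P21 replicate 3. In both genes the Fn adult arrays lay within the range of the Wt P21 arrays. Cfap100 was low on all arrays, at 7.07, 6.77 and 6.46 in Wt P21 and 6.79, 6.74 and 6.78 in Fn adult. Cfap410, which takes part in cilium formation, was the only member with a higher level in Fn adult. It read 9.56, 9.55 and 10.15 in Wt P21 and 10.06, 9.90 and 9.88 in Fn adult, and its difference of 0.20 (adjusted p = 0.530) rose to 0.39 (adjusted p = 0.0551) without Wt P21 replicate 3. Only 1 of its 11 probe sets was lower.

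**Figure D2:**
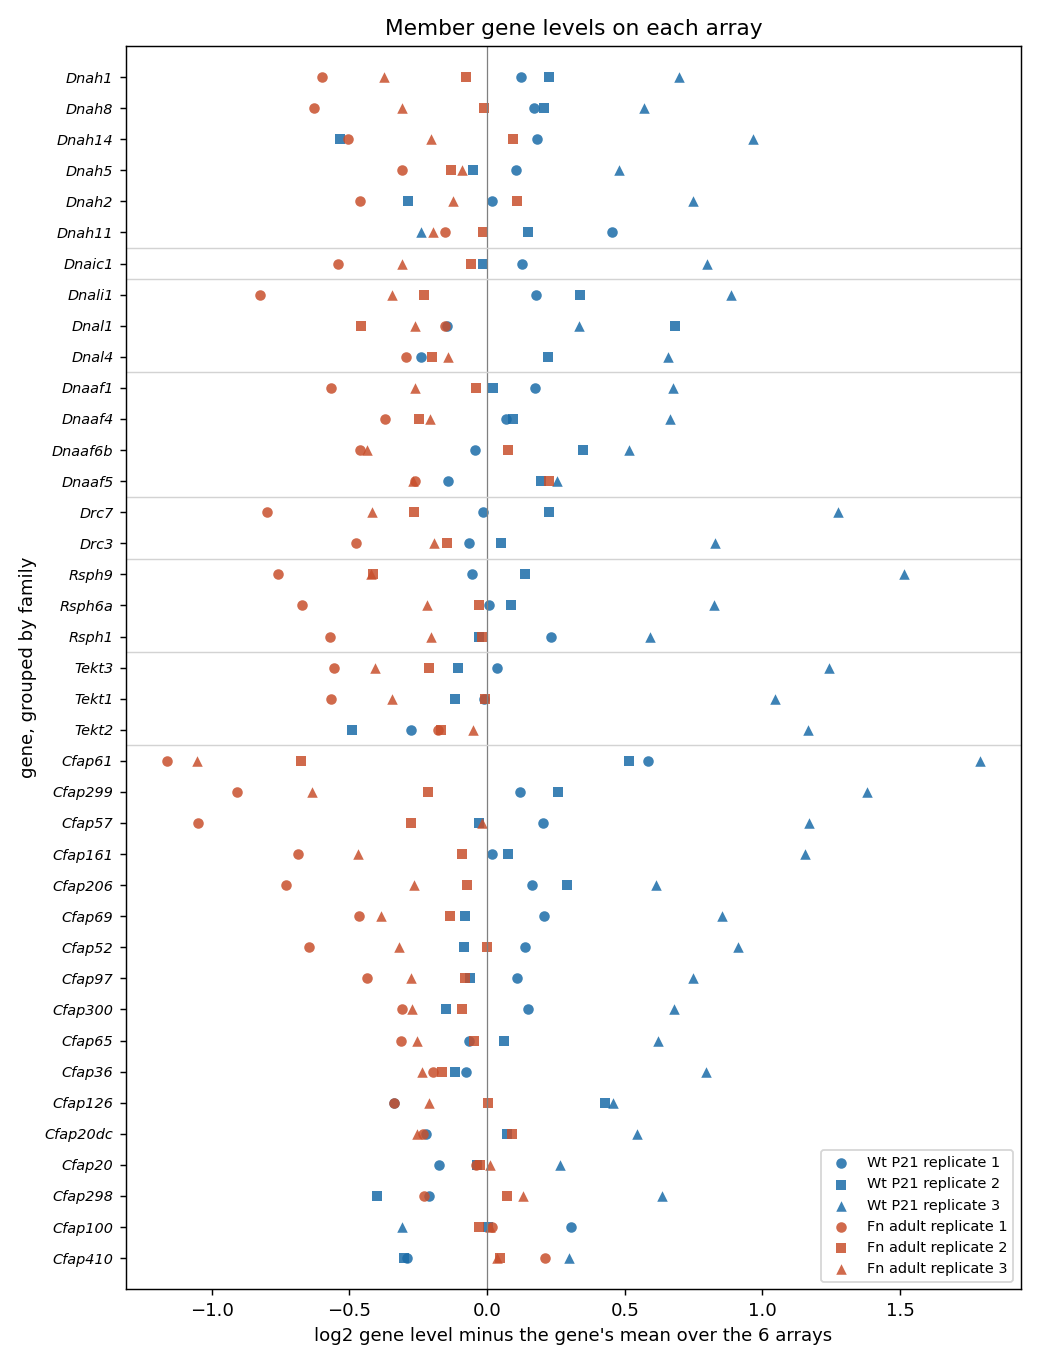
Log2 level of each member on each array, less the gene's own mean over the 6 arrays (horizontal axis), with the genes grouped by family (vertical axis), Wt P21 in blue, Fn adult in red, and circles, squares and triangles for replicates 1, 2 and 3. The blue triangle, Wt P21 replicate 3, is the rightmost mark for 36 of 39 genes, and the red circle, Fn adult replicate 1, is the lowest of the Fn adult marks for 32.

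In most families the median level was highest on Wt P21 replicate 3 and lowest on Fn adult replicate 1. The light and light intermediate chains differed, with medians of 9.21, 10.04 and 9.89 in Wt P21 and 9.21, 9.03 and 9.10 in Fn adult. In 37 members Wt P21 replicate 3 read more than replicates 1 and 2 averaged, and the median of this gap was 0.68 over the members, against 0.14 over all genes. Fn adult replicate 1 was the lowest of its group in 32 members (82.1%), against 28.7% of all genes, and lay a median of 0.30 below the mean of the other 2, where over all genes it lay 0.03 above. In 27 members it was the lowest of all 6 arrays. Leaving out Fn adult replicate 1 or replicate 3 left no member past the threshold, where 0.125% and 0.164% of all genes fell. Leaving out Wt P21 replicate 2 or Fn adult replicate 2 left 1, where 0.467% and 0.243% of all genes fell. The share over all genes thus also dropped, from 0.914% with all arrays.

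**Figure D3:**
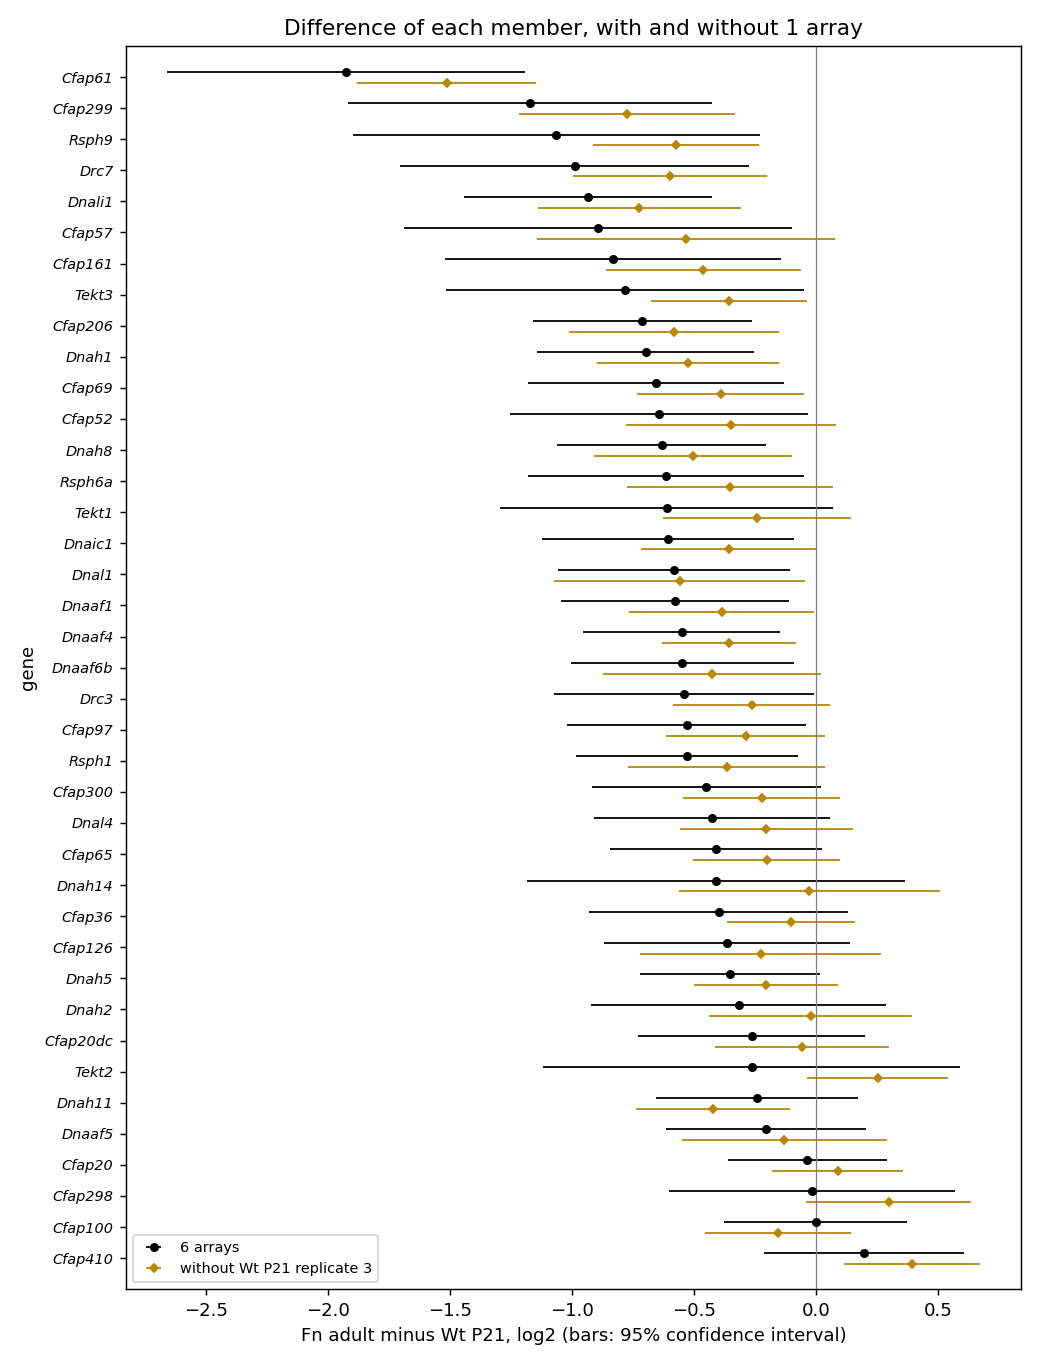
Log2 difference Fn adult minus Wt P21 of each member (horizontal axis, bars are 95% confidence intervals), from all 6 arrays (black circles) and without Wt P21 replicate 3 (gold diamonds), with genes ordered by the 6-array difference (vertical axis). The diamonds lie nearer to 0 than the circles for most genes, and those of Tekt2, Cfap20 and Cfap298 cross to the right of 0.

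Exon arrays also show whether the probe sets along a gene moved together. Of the 764 probe sets of the members, 710 (92.9%) were lower in Fn adult, against 40.4% of all probe sets, with a median difference of -0.51, and in 28 members every probe set was lower. Singly, 16 probe sets of 10 members fell (2.09%, against 0.411% of all probe sets) and none rose, against 3.84% of all. Without Wt P21 replicate 3, 23 fell (3.01%, against 1.05%) and 3 rose (0.393%, against 8.27%), which were probe sets of Cfap410, Cfap100 and Cfap69. The Cfap69 probe set, numbered 5582372, read 7.39, 7.50 and 10.69 in Wt P21 and 9.11, 10.16 and 9.09 in Fn adult, whereas the gene level of Cfap69 was lower in Fn adult. Wt P21 replicate 3 was thus the highest array here too.

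The use of single probe sets relative to their gene was read from the splicing index, the log2 value of a probe set minus the gene level on the same array. No probe set of a member passed the test, where 0.00771% of all probe sets did. At an unadjusted p under 0.05, 16 were higher and 24 lower, together 5.24% of the members' probe sets, against 9.56% of all probe sets. The 4 with the lowest adjusted p, 0.289 to 0.300, belonged to Dnah2 (4462036, -0.40), Dnah5 (4680186, 0.42), Rsph6a (4987443, 0.52) and Tekt3 (5164813, 0.84). Dnah5 and the Tekt3 probe set were low on every array, the latter at 2.62 to 3.53.

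Promoters of the members were searched for the X-box, the element bound by RFX factors, which are regulators of ciliary genes. The letters GTTGCC, a core of the X-box, were looked for on both strands in the 250 bases before each annotated start. RefSeq promoters of build GRCm38.p6 were matched to 34 members. The letters occurred in 7 of them (20.6%), against 11.8% of 27025 genes, and occurred at least 2 times in 5 members (14.7%), against 0.862% of genes. In a window that also held the 50 bases after the start, they occurred in 11 members (32.4%), against 14.1% of genes. These 5 are shown because they carry several copies, from 20 bases before the leftmost copy to 20 bases after the rightmost or to the start, written 5′ to 3′ in the direction of the gene, with GTTGCC and its reverse complement GGCAAC in capitals. All are on the minus strand.
Tekt1, chr11:72361883-72361937: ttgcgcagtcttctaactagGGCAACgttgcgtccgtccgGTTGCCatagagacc
Tekt2, chr4:126325689-126325804: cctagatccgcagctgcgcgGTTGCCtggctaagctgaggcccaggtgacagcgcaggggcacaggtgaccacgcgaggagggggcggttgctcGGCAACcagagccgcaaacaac
Cfap161, chr7:83794853-83794925: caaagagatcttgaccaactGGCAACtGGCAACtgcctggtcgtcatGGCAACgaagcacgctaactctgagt
Cfap20dc, chr14:8666359-8666412: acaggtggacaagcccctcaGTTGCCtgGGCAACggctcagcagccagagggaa
Cfap298, chr16:90934884-90935057: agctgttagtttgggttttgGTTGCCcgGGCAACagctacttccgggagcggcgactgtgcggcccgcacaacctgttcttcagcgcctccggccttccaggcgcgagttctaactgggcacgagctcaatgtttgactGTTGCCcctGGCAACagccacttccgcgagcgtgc

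Members with these letters were not those with the lowest differences. The 7 with a match had differences from -0.83 (Cfap161) to -0.016 (Cfap298) with a median of -0.26, and the 27 without one from -1.93 to 0.20 with a median of -0.58. Both Tekt1 and Tekt2 carried 2 copies, and Tekt3 none. The cyclic AMP response element, bound by the germ cell factor CREM, was searched as TGACGTCA and as its core TGACGT, on both strands, in that longer window. The full letters were in none of the 34 members, against 2.03% of all genes, and the core was in 2, Dnaic1 and Tekt1 (5.88%, against 8.37%). A match is a description of sequence and was not tested for binding.

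Other axonemal genes outside these prefixes, among them spoke, central pair and docking proteins, lay in the same direction. Of 34 measured, 30 were lower with a median difference of -0.49, or 26 with a median of -0.27 without Wt P21 replicate 3. Only Nme5, a radial spoke protein, fell (-0.91, adjusted p = 0.0395), and only Dynlt3, a light chain that also serves cytoplasmic dynein, rose (0.50, adjusted p = 0.0474), although after quantile normalization its adjusted p was 0.188. On the same 34 genes without Wt P21 replicate 3, 3 fell and 4 rose, against 2.41% and 16.1% of all genes. Those that fell were Nme5 (-0.73, adjusted p = 0.0362), Ttc25 (-0.54, adjusted p = 0.0301) and Zmynd10 (-0.51, adjusted p = 0.0412). Ribc1, a protein inside the doublet, rose by 1.25 (adjusted p = 0.00139) and Fbxl13 of the nexin link by 0.92 (adjusted p = 0.0266). Efhc2 (0.66, adjusted p = 0.0148) and Dynlt3 (0.47, adjusted p = 0.0419) also rose. The 15 measured subunits of cytoplasmic dynein and dynactin, which carry cargo and do not beat, had a median difference of 0.06, and none passed the test. The 2 with the largest differences were Dynll2 (0.48, adjusted p = 0.0862) and Dync1li1 (0.36, adjusted p = 0.154). On the 5 arrays without Wt P21 replicate 3 the median was 0.16 and 2 rose, the dynactin subunit Dctn3 (0.54, adjusted p = 0.0401) and the dynein chain Dync1li1 (0.46, adjusted p = 0.0411). Among 18 tubulins and tubulin-modifying enzymes the median was -0.05 (0.05 without Wt P21 replicate 3) and only Tuba4a rose (0.76, adjusted p = 0.0200), which after quantile normalization missed the threshold (adjusted p = 0.0523).

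None of 11 regulators of motile cilia and late germ cells passed the test, and their median difference was -0.11 (-0.01 without Wt P21 replicate 3). Crem and Rfx2, both transcription factors of late germ cells, had the largest differences, at -0.69 (adjusted p = 0.101) and -0.49 (adjusted p = 0.159), and after quantile normalization Crem passed (-0.80, adjusted p = 0.0431). Foxj1, the transcription factor that drives motile cilia, read 7.30, 7.41 and 8.85 in Wt P21 and 8.22, 7.92 and 7.94 in Fn adult. It differed by 0.17 with all arrays and rose by 0.67 (adjusted p = 0.0160) without Wt P21 replicate 3.

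Of the germ cell marker lists, that of pachytene spermatocytes was lower as the members were. All 18 pachytene spermatocyte markers were lower in Fn adult, with a median difference of -0.47 and 2 that fell, against 0.914% of all genes. Without Wt P21 replicate 3, 17 of these markers were lower with a median of -0.26 and 2 fell, against 2.41% of all genes. Their median level was 11.62 to 12.20 on the Wt P21 arrays and 11.27 to 11.49 on the Fn adult arrays, Wt P21 replicate 3 exceeded the mean of the other 2 in all 18, and Fn adult replicate 1 was the lowest of its group in 13. The 23 measured haploid spermatid markers had a median difference of 0.03 and none passed. But without Wt P21 replicate 3 their median was 0.33 and 10 rose, against a median of 0.14 and 16.1% over all genes. Their median level was 7.95 to 8.61 in Wt P21 and 8.38 to 8.70 in Fn adult, 3 of them were low on all arrays, and Wt P21 replicate 3 exceeded the other 2 in 22. Among 12 markers of early meiotic prophase none passed (median difference 0.07). Of 15 spermatogonial markers 2 rose (median -0.08), against 8.07% of all genes.

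Markers of Sertoli cells, Leydig cells and macrophages went the other way. Of 13 Sertoli cell markers 4 rose and 1 fell (median difference 0.37), of 10 Leydig cell markers 8 rose and 1 fell (1.18), and of 12 macrophage markers 8 rose (0.71). Over all genes 8.07% rose and 0.914% fell. Wt P21 replicate 3 exceeded replicates 1 and 2 averaged in only 1 of the Sertoli cell markers. The 11 markers of efferent ducts and epididymis, an epithelium that also holds ciliated cells, had a median level of 7.05 to 7.19 in Wt P21 and 6.62 to 6.93 in Fn adult, and 5 were low on all arrays. Of these 11 markers 9 were lower in Fn adult, with a median difference of -0.18. None of them passed with all arrays, and 2 fell without Wt P21 replicate 3, Crisp1 and Pax2, against 2.41% of all genes. Pax2 read 8.96, 8.89 and 8.05 in Wt P21 and 8.28 to 8.48 in Fn adult. The part of any of these lists in the members' differences was not tested.

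**Figure D4:**
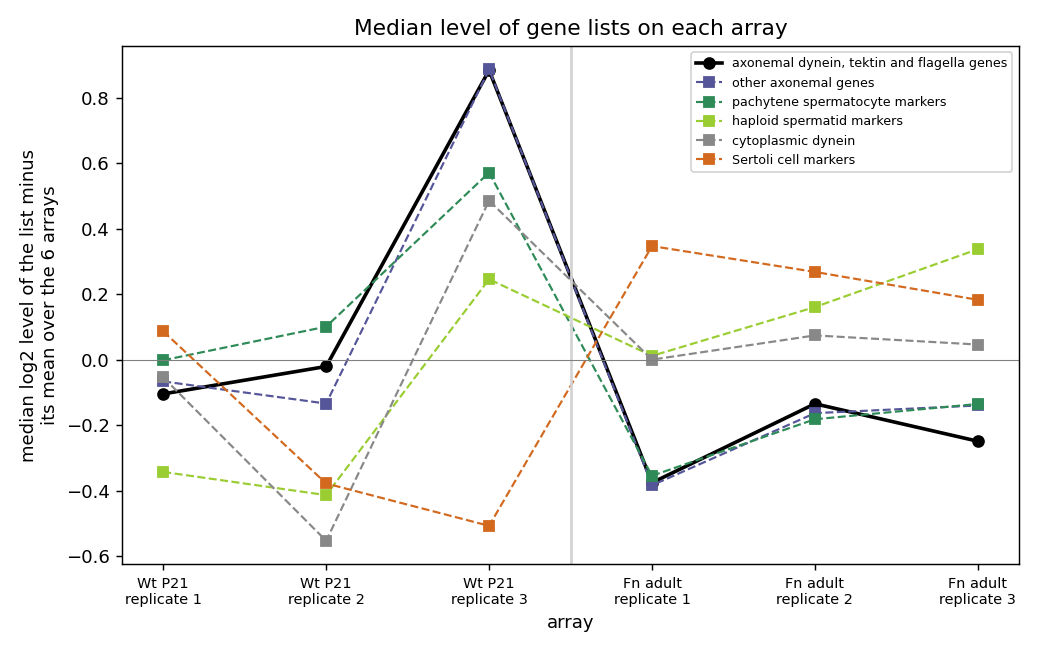
Median log2 level of 6 gene lists on each array, less the mean of that list over the 6 arrays (vertical axis), by array (horizontal axis, Wt P21 left of the grey line and Fn adult right of it). The members (thick black line) and the other axonemal genes peak on Wt P21 replicate 3 and are lowest on Fn adult replicate 1, as are the pachytene spermatocyte markers (median 12.20 and 11.27), while the Sertoli cell markers are lowest on Wt P21 replicate 3.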

How the data were processed

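Total testis RNA was hybridised to 6 Affymetrix Mouse Exon 1.0 ST arrays, 3 for each group. Samples of a group are labelled as biological replicates. The deposited values are log2 levels of 229581 probe sets. The study's methods name the EASANA system of GenoSplice Technology, and mm8 is the build in the submitters' processing notes. The background correction and normalization are not given in the sources used here, so the values were used as deposited.

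Probe sets with 1 gene symbol (209279) were assigned to genes, and symbols were updated through a RefSeq list of assembly GRCm38.p6. This left 14190 of the 16380 array symbols as they were and updated 2145. Another 39 had several possible genes and were kept, and 6 were not matched. Among the members, 33 were updated from an older symbol. No probe set coordinates were used. The gene level was the median over at least 3 probe sets. The test was that of limma (version 3.58.1, functions lmFit and eBayes, under R 4.3.3), two-sided, with Benjamini-Hochberg adjustment over 15207 genes or 207513 probe sets, and a threshold of 0.05. The scripts were tested on simulated data. The number of arrays limits the precision.

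The members and the lists were chosen with earlier results of these data known, so lists are described by counts and medians, with no test. Genes were named by a rule: in each family those past the threshold and those with the lowest and highest difference, members whose call changed without Wt P21 replicate 3, up to 3 genes of each other list, and the 4 probe sets with the lowest adjusted p of the splicing index. Cell type lists are given by counts only, apart from Crisp1, Pax2, Rnase10 and Lcn8. Other members named in the text were added after their values were seen. So were Ribc1, Fbxl13, Efhc2, Ttc25, Zmynd10, Foxj1 and Dctn3 of the other lists, and Rnase10 and Lcn8. The alternatives were quantile normalization, centring of array medians, removal of each array in turn, a replicate block, array weights, a robust eBayes with a trend, the mean of probe sets and brighter probe sets only. A comparison of tektin proteins was not run, and diffSplice was not run.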

Additional observations from a re-analysis of the deposited data

How the results depend on the processing

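The median difference of the members, -0.55, lay between -0.71 and -0.35 under the alternatives that recompute it, while the counts past the threshold moved. The number of members that fell was 2, against 0.914% of all genes. It was 10 after quantile normalization (2.97% of all genes), 17 with array medians centred (4.14%), 4 with the replicate block (0.829%), 7 with array weights (4.26%), 4 with the mean of probe sets (1.51%) and 4 of 34 with brighter probe sets only (1.79%). With 1 array left out it was 0 to 5 (0.125% to 2.41%). After quantile normalization without Wt P21 replicate 3 it was 11, against 5 as deposited without that array. Over all genes 1366 passed, but 3160 with array weights, 2228 with the mean of probe sets, and 325 to 2821 with 1 array left out, highest without Wt P21 replicate 3 and lowest without Fn adult replicate 1. Of all calls 10.2% were lower in Fn adult as deposited, 35.4% after quantile normalization and 47.3% with array medians centred, which moved the median difference of all genes by -0.12 and -0.17. Member probe sets past the threshold numbered 16, all lower, against 0.411% of all probe sets. They numbered 43 after quantile normalization, 87 with array medians centred, 62 with trend and robust, and 0 to 26 with 1 array left out. Of the 26, found without Wt P21 replicate 3, 23 were lower and 3 higher, against 1.05% and 8.27% of all probe sets. No share over all probe sets is given here for the other settings, so those counts are not read as a result about the members. No splicing index of a member passed under any alternative run. The cause was not tested.

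With 1 array left out the difference of Tekt2 ranged from -0.57 to 0.25, that of Cfap20 from -0.13 to 0.088, that of Cfap298 from -0.22 to 0.30 and that of Cfap100 from -0.16 to 0.15. The direction of Tekt2 turned without Wt P21 replicate 3 (0.25), with array weights (0.055) and after quantile normalization without Wt P21 replicate 3 (0.0087). That of Cfap20 turned without Wt P21 replicate 3 and with array weights (0.10), and that of Cfap298 without Wt P21 replicate 3 (0.30), without Fn adult replicate 1 (0.09), with array weights (0.18) and after quantile normalization without Wt P21 replicate 3 (0.15). Cfap100 turned on leaving out Wt P21 replicate 1 (0.15) or 2 (0.00066) or Fn adult replicate 2 (0.013), and with brighter probe sets only (0.12). None of these passed the threshold. The replicate numbers gave no consistent sign of a pairing of the samples. Deviations of arrays with numbers 1, 2 and 3 correlated at 0.24, -0.11 and -0.02, and only those with number 1 correlated best with each other. With 3 arrays in each group this check cannot exclude a pairing. With the replicate block, 4 members fell, against 0.829% of all genes.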

Other observations

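Dnah12, another heavy chain, had 8 probe sets that also carry the symbol of its neighbour Asb14 and so was no member. Their median read 6.49, 6.88 and 7.39 in Wt P21 replicates 1 to 3 and 6.90, 6.84 and 6.62 in Fn adult. The groups overlapped, with a difference of -0.14, and these levels were low on all 6 arrays.

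Some further genes known for secretion in the epididymis had the array order of Crisp1, and they were picked after their values were seen. Wfdc15b read 9.61, 7.20 and 6.40 in Wt P21 replicates 1 to 3 and 6.01 to 6.22 in Fn adult. Spink8 read 8.95, 7.04 and 5.70 in Wt P21 and 5.59 to 6.11 in Fn adult. Adam7 read 7.69, 6.57 and 5.72 in Wt P21 and 5.02 to 5.47 in Fn adult. Each was highest on Wt P21 replicate 1 and next highest on Wt P21 replicate 2, and none passed the test between the groups. Other genes of the epididymal list, low on all arrays, did not have this order. Rnase10 read 6.11, 6.00 and 6.95 in Wt P21 and 6.08 to 6.28 in Fn adult. Lcn8 read 6.84, 7.11 and 7.05 in Wt P21 and 6.61 to 6.93 in Fn adult.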
